A study of Mus musculus with 12 samples.

Results

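The baseline transcriptome described here is that of primary mouse chondrocytes that received only the DMSO vehicle for 24 hrs. It was measured on 3 of the 12 arrays of the series, those whose labels give DMSO and 24 hrs, numbered replicates 1, 2 and 4. The other arrays carried RNA of cultures given dexamethasone or collected at an earlier time, and they were not used here. The cells came from the tibiae, femurs and humeri of CD1 mouse embryos at embryonic day 15.5, which were released with trypsin and then collagenase P. They grew as monolayers in serum-containing medium, and the vehicle was added in fresh medium that also held ascorbic acid and beta-glycerophosphate, a phosphate source used in mineralizing cultures. The cultures were thus untreated only in the sense that no dexamethasone was added. No step of the protocol sorted the cells, so a culture could hold chondrocytes of every growth plate zone together with cells of the perichondrium and surrounding soft tissue. The study's methods describe 3 independent cell isolations. The labels number the arrays but do not say which isolation each came from.

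Chondrocytes build the cartilage template of the long bones by secreting a matrix of type II collagen fibrils and aggrecan, a proteoglycan that binds hyaluronan and holds water. In the growth plate, resting cells give rise to columns of proliferating cells, which stop dividing, pass through a prehypertrophic state marked by Indian hedgehog (Ihh) and parathyroid hormone receptor (Pth1r), and enlarge into hypertrophic cells that make type X collagen (Col10a1). The transcription factor Sox9, with Sox5 and Sox6, drives the cartilage matrix genes. In monolayer on plastic, chondrocytes are known to drift toward a fibroblast-like state with more type I collagen.

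The values are linear fluorescence intensities of 45101 probe sets per array. A gene was given the intensity of its brightest probe set, judged by the mean of the 3 arrays, and the 18194 named genes were ranked by that mean. Brightness depends on how well a probe set binds as well as on the amount of transcript, so the order is one of intensity and not of molecule number. Arrays give no read depth, and their number, 3, limits the precision. The median probe set had an intensity of 36.6, 39.1 and 35.3 on replicates 1, 2 and 4, and the brightest reached 7183, 8449 and 7257. A mean intensity of at least 50, the level the study's methods used as a filter, was reached by 10664 of the 18194 genes, or 58.6%. Only 1225 genes reached 1000 and 101 reached 4000. The spread between arrays was smaller for brighter genes. The median coefficient of variation (CV, the SD as a percentage of the mean) was 15.0% for genes with a mean of 50 to 200 and 8.83% for those of at least 1000. Values of single arrays are given below in the order replicates 1, 2 and 4, and errors are SD with n = 3.

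All 7 genes used to mark the cells, Col2a1, Col9a1, Acan, Matn1, Ibsp, Col10a1 and Sox9, had a mean of at least 50, against 58.6% of all named genes, and 6 of them had a mean above 1000. Col2a1, the chain of type II collagen, had intensities of 5897, 7893 and 6462, a mean of 6751 ± 1029, and stood at rank 5 of all genes. Col9a1, a chain of the type IX collagen that coats these fibrils, read 4642, 5941 and 4964 and stood at rank 43. Acan, the aggrecan core protein, read 2618, 4120 and 3357 and stood at rank 145. Replicate 2 was the highest array for each of these 3 matrix genes and replicate 1 the lowest. Matn1, which encodes the cartilage matrix protein matrilin 1, read 1188, 2046 and 2167, with replicate 1 well under the others. Ibsp, bone sialoprotein, a mineral-binding protein of late hypertrophic cells and osteoblasts, read 1622, 1157 and 1091, and here replicate 1 was the highest. Col10a1 read 988, 1395 and 1003. Its 3 values overlapped those of Ibsp above it and of Sox9 below it in the order. Sox9 read 947, 1036 and 970, a mean of 985 ± 46.3, and its CV of 4.70% was the smallest of the marker genes. Of the 6 neighbouring pairs in this order, the 3 arrays of both genes were apart for Col9a1 over Acan and for Acan over Matn1 and overlapped for the other pairs. The defining genes of the labelled cell type were thus present, with matrix genes of proliferating cells at the top of the scale. The hypertrophic genes Col10a1 and Ibsp were brighter than 94.3% and 95.3% of all genes.

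The DNA before the transcription start of 4 of these markers, at ranks 145 to 1036, is shown beside that of 2 ribosomal protein genes from the top of the ranking. These genes are examples. RefSeq start windows on GRCm38.p6 run from 250 bases before to 50 bases after a start, and 14453 of the named genes and 5 of the 7 markers had one. Col9a1 had a window but is not printed. The last 100 bases before the start are printed 5′ to 3′ on the gene's own strand. Capitals mark matches, on either strand, to TATAAA (the TATA box), GGGCGG (the GC box bound by Sp1) and CCGGAAG (a core sequence bound by ETS family factors). None of these matches overlapped a match to another motif.
Acan, plus strand, chr7:79053126-79053225: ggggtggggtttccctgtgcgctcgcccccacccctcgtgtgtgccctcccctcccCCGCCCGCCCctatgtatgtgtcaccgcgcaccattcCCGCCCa
Matn1, plus strand, chr4:130944285-130944384: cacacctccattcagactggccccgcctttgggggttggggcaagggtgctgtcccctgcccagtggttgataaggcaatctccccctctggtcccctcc
Col10a1, plus strand, chr10:34389881-34389980: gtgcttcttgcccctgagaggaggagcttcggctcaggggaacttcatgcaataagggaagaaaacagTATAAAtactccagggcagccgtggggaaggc
Ibsp, plus strand, chr5:104299187-104299286: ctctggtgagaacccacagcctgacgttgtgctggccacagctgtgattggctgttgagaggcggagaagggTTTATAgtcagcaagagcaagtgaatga
Rpl41, minus strand, chr10:128549169-128549268: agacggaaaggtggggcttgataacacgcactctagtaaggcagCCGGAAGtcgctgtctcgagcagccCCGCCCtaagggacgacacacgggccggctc
Rps18, minus strand, chr17:33955666-33955765: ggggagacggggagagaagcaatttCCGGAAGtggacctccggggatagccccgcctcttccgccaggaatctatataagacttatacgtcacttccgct

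Acan held 3 GC boxes in this stretch and 31 CG dinucleotides in its window, the Col10a1 and Matn1 windows held 6 each and the Ibsp window 5. Over windows of genes with a mean of at least 500 the median was 23 CG dinucleotides, over genes under 50 it was 7, and over the 58 windows of matrix genes with a mean of at least 500 it was 10. CCGGAAG occurred in 38.9% of the 36 windows of ribosomal protein genes among the 100 brightest, in 0 of the 58 matrix windows, in 19.9% of windows of all genes of at least 500 and in 8.86% of all 32851 windows. Both ribosomal protein genes printed carry it, so they do not stand for most of these 36 windows. TATAAA occurred in 15.5% of the matrix windows against 7.60% for all genes of at least 500 and 13.6% of all windows. Windows of genes with several starts overlap, so these shares describe the sequences and were not tested. A match gives letters and not a bound factor.

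The 100 brightest genes lay between 4083 and 7240, a range of only 1.77-fold, so the top of the order is flat. For none of the 99 neighbouring pairs was the gap in mean larger than their pooled SD, and 36 of the 100 genes had values overlapping those of Col2a1. Membership was steadier than order: 86 genes were among the 100 brightest on all 3 arrays, and 114 on at least 1. Vim, which encodes the intermediate filament protein of mesenchymal cells, read 7014, 7830 and 6878 and stood first. It was followed by Lgals1 (galectin 1, a secreted sugar-binding protein) at 7183, 7105 and 6716 and by the elongation factor Eef1a1 at 6370, 7917 and 6538. The plot of the 100 brightest genes shows that replicate 2 was the highest array for 69 of them, replicate 1 for 13 and replicate 4 for 18. Over the 1225 genes of at least 1000, replicate 2 was highest for 517.

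**Figure D1:**
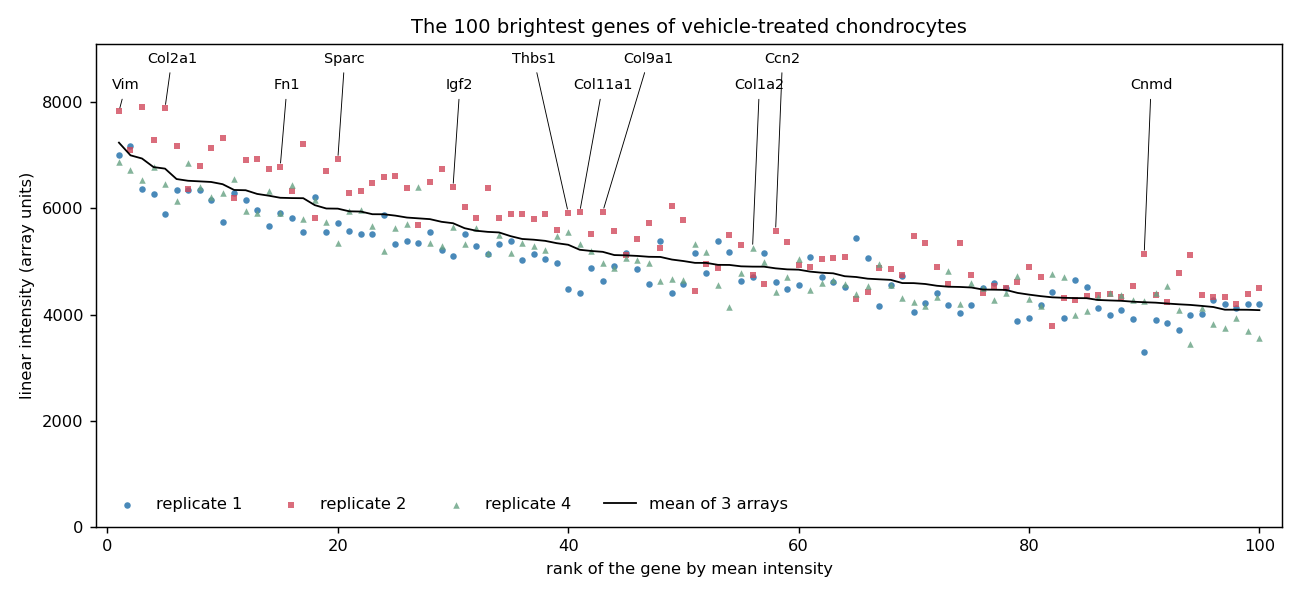
Linear intensity of the 100 brightest named genes in order of their mean, with 1 point per array and a black line for the mean of the 3 arrays. The mean falls from 7240 to 4083 without a step, and most of the highest points belong to replicate 2.

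By function, the brightest genes were those of protein synthesis. Of 48 listed ribosomal protein genes, 34 were among the 100 brightest, led by Rpl41 (6266, 7288 and 6786), Rps29 and Rps18, and Rps3a1, which the list missed by its name, stood among them with a mean of 6196. A further 64 probe sets that carry several symbols, one of them ribosomal, were brighter than the 100th gene and were left unnamed. The low readings of Rps16 (mean of 0.848) and Rpl3l (12.2) therefore say little about Rps16, a gene of every cell. All 25 genes of the translation list with a named probe set had a mean above 1000. Among the 100 brightest were 9 of them, including Tpt1 (6457), Eef2 (4974) and Npm1 (4903). Npm1, Nme2, Tpt1 and Naca, all among these 9, do not encode translation factors. The cytoskeleton list gave 8 of the 100 (Actg1, Actb, Tmsb10, S100a6, Anxa2 and Pfn1 beside Vim and Lgals1). Lgals1 is in this list without being part of the cytoskeleton, and S100a6 and Anxa2 encode calcium-binding proteins. Glycolysis gave 3 (Gapdh, Pgk1 and Ldha) and the respiratory list 5, with Uqcrb, a subunit of complex III, at 5089.

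Apart from synthesis and structure of the cell, the 100 brightest held 11 genes of the matrix lists: Col2a1, Fn1, Sparc, Thbs1, Col11a1, Col9a1, Col1a2, Col5a2, Col3a1, Col1a1 and Cnmd. Fn1, fibronectin, read 5911, 6787 and 5907. Sparc, a collagen-binding glycoprotein, read 5717, 6932 and 5340, again with replicate 2 highest. Igf2, the fetal insulin-like growth factor, read 5101, 6407 and 5656. With each gene read by its brightest probe set, Igf2 was the brightest listed secreted growth factor. Beside it, 5 further genes known to be imprinted, expressed from 1 parental copy in at least some tissues, were among the 100: Mest (5142, 6376 and 5159), Dlk1 (4870, 5524 and 5202), Plagl1 (4402, 6047 and 4662), Gnas (3938, 4888 and 4303) and Grb10 (3701, 4791 and 4088). The arrays did not tell the parental copies apart. With the mean over all probe sets in place of the brightest, 2 imprinted genes were among the 100. The second probe set of Grb10 had a mean of 426 and that of Gnas 104. That of Plagl1 had a mean of 1146, that of Igf2 415 and that of Dlk1 25.4, which is under 50. Mest had 1 named probe set. Peg3 stood at rank 101. Of the 57 imprinted genes with a named probe set, 45 had a mean of at least 50, or 78.9%, against 58.6% of all named genes. This list was drawn up after the values were seen. Other bright genes outside the lists fixed for this work were Ran, the GTPase of nuclear transport (5116 ± 46.6), the aldehyde reductase Akr1a1 (4852 ± 460), the chromatin protein Hmgn1 (4810 ± 319) and Tsc22d1 (4592 ± 780).

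Among matrix genes, all 10 cartilage collagen genes had a mean of at least 50, and 8 had a mean above 1000. Type XI collagen forms the core of the cartilage fibril, and its chain Col11a1 read 4402, 5934 and 5329. Col11a2 had a mean of 1833. Of the type IX chains, Col9a3 read 2167, 3886 and 2973 and Col9a2 read 467, 914 and 466, so replicate 2 lay clearly above the others in both. The type VI chains of the pericellular matrix, Col6a1, Col6a2 and Col6a3, had means of 3171, 2406 and 2077. Each of the 10 genes was highest on replicate 2, against 3908 of the 10664 genes of at least 50. The collagens of fibrous tissue and bone were also bright, and Col1a2 read 4708, 4746 and 5257, Col3a1 4428, 3776 and 4773, and Col1a1 3996, 4396 and 4407, and none of them was highest on replicate 2. Of 28 other collagen genes with a probe set, 19 had a mean of at least 50, or 67.9%, against 58.6% of all named genes. Col22a1 (42.5), Col19a1 (25.2), Col13a1 (20.4) and Col24a1 (15.9) did not reach it.

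All 25 genes of proteoglycans and link proteins were at 50 or more, against 58.6% of all named genes. The brightest was the small leucine-rich proteoglycan biglycan, Bgn, at 3282, 3412 and 3514, the most even of the leading matrix genes. Acan followed, then Epyc (epiphycan, 2690 ± 545) and Hapln1, the link protein that fastens aggrecan to hyaluronan, at 2486, 3434 and 2082. Cell surface proteoglycans were also present, with means of 1243 for Sdc4, 1180 for Sdc1, 1094 for Sdc2 and 1028 for Sdc3. The dimmest named members were Chad, encoding the cell-binding protein chondroadherin, at 115 and Srgn, the granule proteoglycan of blood cells, at 64.4, and both were picked with their values in view.

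Of 40 other matrix proteins of cartilage, 33 were at 50 or more. Cnmd, chondromodulin, an inhibitor of vessel growth, read 3291, 5146 and 4260. Mgp, an inhibitor of mineral deposition, read 3045, 4193 and 1965, and Matn3 read 1951, 3410 and 1065. These 2 genes spread more widely than Fn1 or Bgn. Comp, a pentameric protein that binds collagen, had 1353, 2185 and 1942. Proteins of articular and intermediate-zone cartilage, Cilp (24.7) and Cilp2 (33.0), lay under 50. Taking the 3 cartilage lists as one, 68 of 75 genes, or 90.7%, reached 50, against 58.6% of all named genes.

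The machinery that makes this matrix was bright as well. Of 40 genes for collagen folding, modification and secretion, 39 reached 50, or 97.5%, against 58.6% of all named genes, and 22 reached 1000. P4hb, a subunit of prolyl 4-hydroxylase and a disulfide isomerase, read 4178, 4567 and 4829, and Serpinh1, the collagen chaperone HSP47, read 4494, 4413 and 4508. Lox, which cross-links collagen, had a mean of 3298 ± 357. For glycosaminoglycan chains, 37 of 42 genes reached 50, or 88.1%, led by Ugdh, which makes UDP-glucuronic acid, at 2977 ± 377. Papss2, which makes the sulfate donor and whose loss causes short limbs, read 1685, 2856 and 2302. Chst11, the chondroitin 4-sulfotransferase, read 997, 1496 and 1076, while Chst3 (19.4) and Chst13 (28.2) did not reach 50.

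Matrix breakdown was represented by 28 of 35 protease and inhibitor genes at 50 or more, or 80%, against 58.6% of all named genes. Mmp13, the collagenase of hypertrophic cartilage, was the brightest at 3608, 4111 and 2225, and its lowest array was replicate 4. The inhibitors Timp2 (3058 ± 138) and Timp1 (2985 ± 208) differed less between arrays. Mmp10 (9.78), Mmp8 (30.0) and Mmp19 (26.6) were under 50.

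No member of the 4 regulator lists was among the 100 brightest genes. Plagl1, a zinc finger factor, and Tsc22d1, a leucine zipper protein, were among the 100 but stand outside those lists. Of 71 factors of the chondrocyte list, 57 were at 50 or more, or 80.3%, against 58.6% of all named genes. The brightest, Ctnnb1, which encodes the Wnt effector beta-catenin, read 3193, 3987 and 3295. Next came Atf4 (2394, 2134 and 2798), which responds to amino acid and secretory stress, then Sox4, Hif1a, the oxygen-regulated factor, and Xbp1, a factor of secretory cells, with means of 2141, 2056 and 1924. Sox9 stood ninth in this list. Its partners Sox6 (374, 739 and 534) and Sox5 (285, 361 and 306) were lower and are named for their role after their values were seen. Both were highest on replicate 2. Trps1, a GATA-type repressor of the growth plate, had a mean of 999 ± 120. Among factors under 50 were Nkx3-2 (31.5), a repressor of hypertrophy, Pax9 (40.6), Lmx1b (33.4) and Alx4 (21.6). Of factors of late differentiation, Sp7 (osterix) read 172, 175 and 146, Mef2c 195, 227 and 222 and Runx3 112, 116 and 114, all 3 with little spread. Runx2 had no named probe set.

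Immediate early and stress factors were bright in these cultures, with 35 of 40 at 50 or more, or 87.5%, against 58.6% of all named genes. Egr1 read 1840, 1545 and 1203, Jund 1837, 1835 and 1902 and Klf4 1298, 1060 and 1017. The cell cycle inhibitor Cdkn1a read 1625, 2049 and 1218. Of the mediators of TGF-beta and BMP signals, 17 of 19 reached 50, or 89.5%. The BMP-responsive inhibitors of DNA binding stood highest, with Id3 at 1395 ± 28.5, Id2 at 1368 ± 243 and Id1 at 1258 ± 129.

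Hox genes are expressed in nested domains along the limb, with paralogue groups 9 and 10 in the upper segment, 11 in the middle and 13 in the hand and foot, and 16 of 34 genes of position and limb identity reached 50, or 47.1%, against 58.6% of all named genes. Hoxa9 read 613, 755 and 791, Hoxa10 read 647, 730 and 701 and Hoxa11 read 395, 354 and 440. Hoxd9 had a mean of 393 ± 39.3. The genes of the hand and foot lay at or under the limit, with Hoxa13 at 24.7, 32.8 and 21.3 and Hoxd13 at 72.2, 35.1 and 56.5. The hindlimb genes Pitx1 (197, 220 and 226) and Tbx4 (201, 155 and 206) and the forelimb gene Tbx5 (156, 81.3 and 115) were all present, and the dissection had taken bones of both limbs. The plot of these genes by array shows that 18 of the 34 were under 50 on every array.

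**Figure D2:**
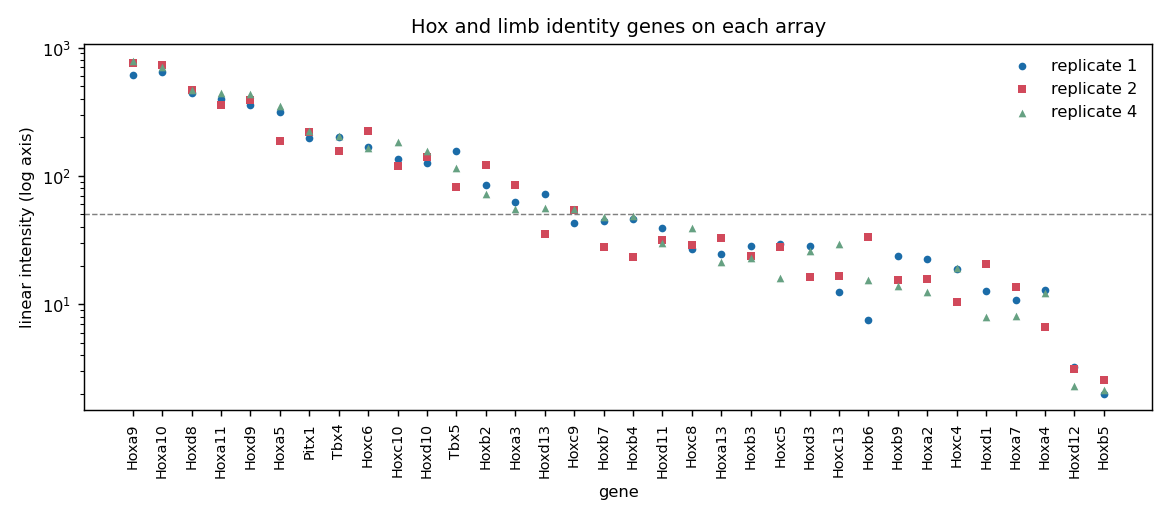
Linear intensity, on a log axis, of Hox genes and limb identity genes on each of the 3 arrays, in order of their mean; the dashed line marks 50. Hoxa9 and Hoxa10 are at the left, at means of 720 and 693, and Hoxa13 lies below the line on every array.

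Receptors for the signals of the growth plate were present. Of 12 genes for FGF, PTHrP and hedgehog reception, 11 reached 50, or 91.7%, against 58.6% of all named genes. Fgfr3, the FGF receptor that slows chondrocyte division, read 1026, 1354 and 1539, and the decoy-like Fgfrl1 read 1819, 2236 and 2205. Smo, the hedgehog signal transducer, had a mean of 977 ± 140, and Ptch1, the hedgehog receptor and itself a target of the signal, read 910, 929 and 667. Hhip, which encodes another hedgehog-binding protein, read 52.4, 15.6 and 32.3. Pth1r, the receptor of PTHrP, read 416, 390 and 373. Of the TGF-beta and BMP receptors, 11 of 15 reached 50, or 73.3%, led by Tgfbr2 at 1415, 1423 and 1595 and Tgfbr3 at 855 ± 77.9. Bmpr1b lay at the limit with 66.5, 44.5 and 46.2.

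Among matrix receptors, Itgb1, the common integrin beta chain, read 2054, 2114 and 2062 and Cd44, a hyaluronan receptor, 2194, 1467 and 1342. The brightest other receptor of growth factors and cytokines was Tnfrsf12a, the receptor of TWEAK, at 1851, 1912 and 1257. Tnfrsf11b, osteoprotegerin, the decoy of the osteoclast factor RANKL, read 1137, 1181 and 752. Of the nuclear receptors 14 of 27 reached 50, or 51.9%, under the 58.6% of all named genes, and the highest were Rarg, a retinoic acid receptor of cartilage (817, 951 and 807), Nr3c1, the glucocorticoid receptor (568, 483 and 435), and Thra, a thyroid hormone receptor (336, 300 and 501). Of G protein coupled and natriuretic receptors 12 of 21 reached 50, or 57.1%, near the share of all named genes. Npr2, the receptor of the C-type natriuretic peptide that promotes bone growth, read 447, 640 and 489.

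Of 54 growth factor genes 37 reached 50, or 68.5%, against 58.6% of all named genes. After Igf2 the brightest were Ccn2 (4608, 5579 and 4428) and Ccn1 (3337, 5204 and 2641), secreted matricellular proteins formerly named CTGF and CYR61. All 3 genes were highest on replicate 2. Ihh, the hedgehog ligand of prehypertrophic cells, read only 94.6, 99.0 and 64.8, where its receptor Ptch1 had 667 or more on every array. Fgf18 (17.6), Fgf9 (34.8) and Fgf2 (21.2), FGF ligands known in the growth plate, were under 50. Of 18 Wnt ligands 7 reached 50, or 38.9%, against 58.6% of all named genes, and Wnt5a was the highest at 258, 150 and 350. Secreted antagonists and binding proteins were brighter, with Igfbp4 at 3604, 3245 and 3596 and Fstl1 at 3389, 3022 and 3655. Of the cytokines and chemokines 16 of 26 reached 50, or 61.5%, near the 58.6% of all named genes. Mif read 2894, 2970 and 3336 and Csf1, the macrophage growth factor, 1549, 1882 and 1747, while the inflammatory cytokines Tnf (8.39), Il1a (8.39) and Il1b (48.7) stayed under 50.

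By growth plate zone, all genes with a named probe set in the proliferating, prehypertrophic and hypertrophic lists reached 50, 16 of 16, 11 of 11 and 19 of 19. Spp1, Phospho1, Enpp1 and Runx2 of the hypertrophic list had no named probe set and were not counted. The same held for Runx2 in the prehypertrophic list and Pthlh in the resting zone list. In the resting zone and joint surface lists, 9 of 12 and 13 of 17 reached 50, or 75% and 76.5%. The share of all named genes was 58.6%, and the list members were chosen with earlier results of these data known. The median member was at 1814 in the proliferating list, 393 in the prehypertrophic, 214 in the hypertrophic, 115 in the resting zone and 187 in the joint list, against 82.4 for all named genes. Since the lists hold different genes, these medians do not give the share of cells in a zone. Besides Mmp13, Ibsp and Col10a1, the hypertrophic list held Ctsd (2081 ± 37.3), Sulf1 (926, 1638 and 1246), the pyrophosphate transporter gene Ank (781, 672 and 544) and Slc20a1, a phosphate transporter (587, 562 and 647). Alpl, the phosphatase of mineralizing cells, was named outside these leaders for its role and read 180, 232 and 167. In the resting zone list Gas1 stood alone above 1000 (1630, 1289 and 2103) and Ucma, a secreted protein of upper-zone cartilage, read 405, 770 and 305. In the joint list Gdf5, the growth factor of the joint interzone, read 148, 253 and 160 and Prg4, the lubricant of the joint surface, 232, 165 and 180. The plot of zone genes by array shows Col2a1, Col9a1 and Cnmd at the top and Mmp13, with a mean of 3314, level with Acan.

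**Figure D3:**
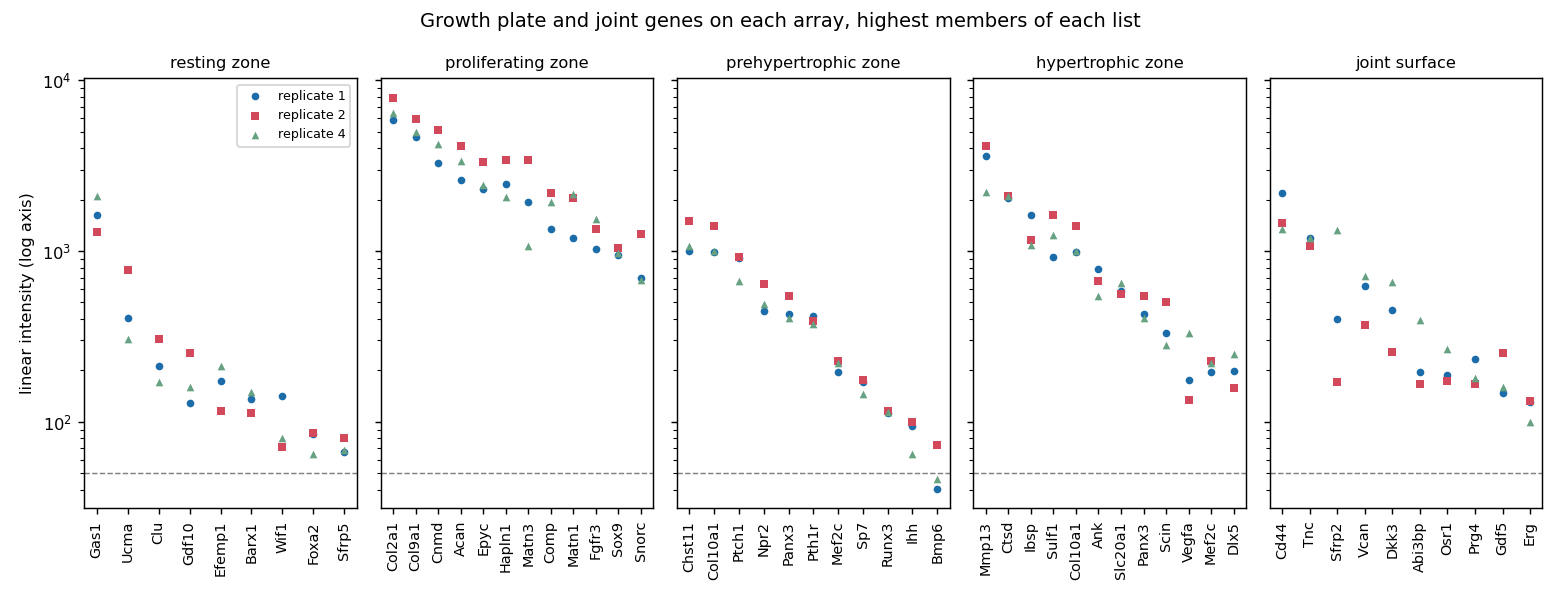
Linear intensity, on a log axis, of the highest members of 5 lists of growth plate zones and the joint surface, with 1 point per array; the dashed line marks 50. Col2a1 and Col9a1 of the proliferating list lie highest, Mmp13 of the hypertrophic list lies level with Acan, and of the genes drawn only Bmp6 has points below the line.

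Genes of dividing cells were present in force. Of 43 cell cycle genes 41 reached 50, or 95.3%, against 58.6% of all named genes, and 21 had a mean above 1000. Rrm2, a subunit of ribonucleotide reductase, read 3228, 3109 and 2542, the replication clamp Pcna 2958, 2850 and 2887, and the mitotic kinase gene Cdk1 1598, 1489 and 1483. Cdkn1c, the growth inhibitor p57, which is imprinted, read 1757, 2473 and 2427. Of the 41 genes, 27 were highest on replicate 1, against 3099 of the 10664 genes of at least 50.

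Traces of other cells were looked for with 14 lists. Because a whole culture was measured, fewer cells of a type and less RNA per cell cannot be told apart. Of 203 genes in these lists 90 reached 50, or 44.3%, against 58.6% of all named genes, and the lists differed widely. No erythroid gene of 11 and no liver gene of 9 reached 50, with the haemoglobin gene Hba-a1 at 29.3, 15.5 and 12.2 and albumin, Alb, at 28.6, 28.2 and 33.9. In the endothelial list 2 of 16 did, Egfl7 (98.9 ± 12.5) and Kdr (67.3 ± 4.19), while the defining genes Cdh5 (18.3) and Pecam1 (17.4) did not. Of 11 lymphocyte genes only Cd8a (75.6) passed, and Cd3e (7.86) and Cd4 (6.46) were near the floor. The plot of list members shows these lists to the left of the line at 50.

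**Figure D4:**
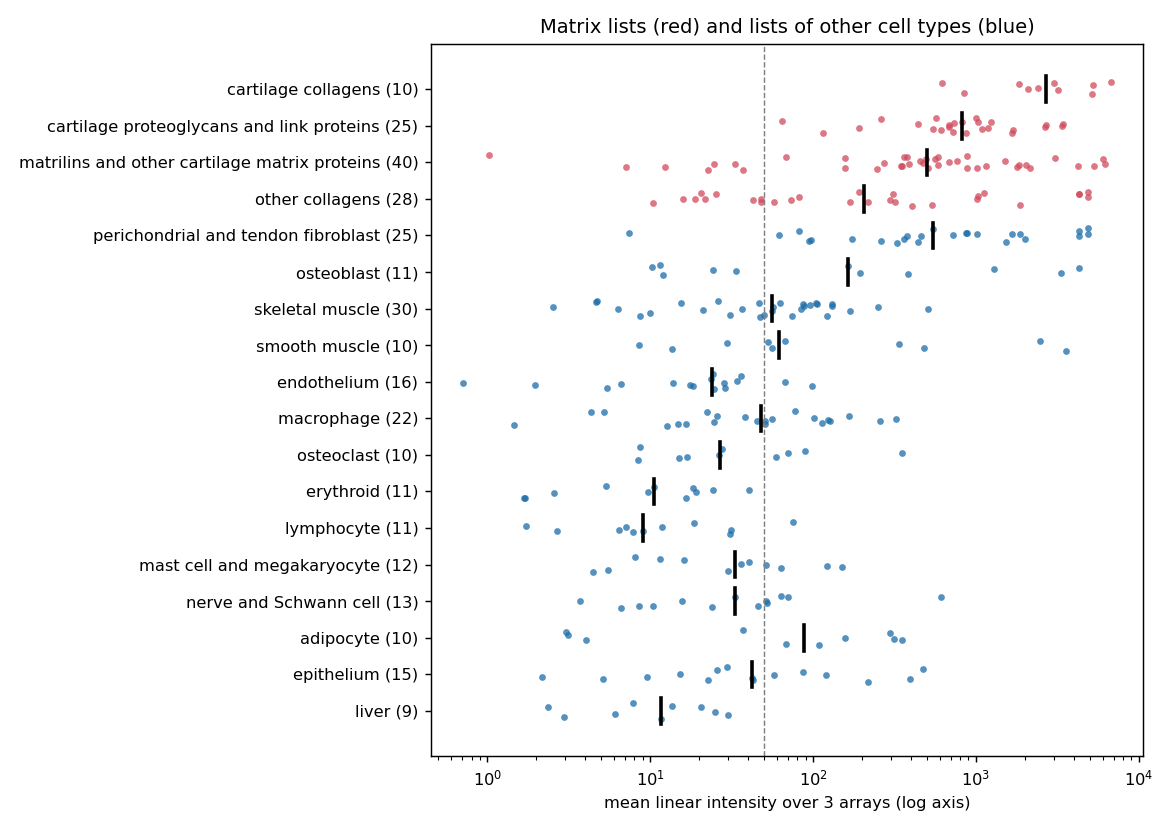
Mean linear intensity over the 3 arrays, on a log axis, of every named member of 4 matrix lists (red) and 14 lists of other cell types (blue), with the number of members in brackets; the dashed line marks 50 and black bars the medians. The medians of the erythroid, lymphocyte and liver lists are 10.5, 9.06 and 11.7, and those of the 3 cartilage lists are 2707, 816 and 499.

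Of 22 macrophage genes 11 were at 50 or more, or 50%, under the 58.6% of all named genes. Lyz2, lysozyme, read 351, 279 and 343, Csf1r, the receptor of Csf1, read 135, 98.7 and 150, and Adgre1, the F4/80 antigen, read 128, 93.4 and 151. Replicate 2 was the lowest array for all 3. Itgam (12.7), Aif1 (14.8) and Ptprc (25.9) were under 50. Of osteoclast genes 4 of 10 passed, or 40%, also under that share. Ctsk, cathepsin K, read 306, 374 and 371, and Acp5, the tartrate-resistant phosphatase, 78.3, 134 and 55.2, while Calcr (8.40) and Dcstamp (15.1) did not reach 50. Osteoblast genes passed in 6 of 11, or 54.5%, near the 58.6% of all named genes. Of those 6, 5 (Mmp13, Ibsp, Sp7, Alpl and Smpd3) are also known from hypertrophic chondrocytes. The osteocyte genes Dmp1 (11.6) and Sost (10.2) were near the floor. Epithelial genes passed in 6 of 15, or 40%, under the 58.6% of all named genes. Epcam read 267, 622 and 530 with its brightest probe set and a mean of 12.4 with its second, so its own probe sets disagreed, and Cdh1, E-cadherin, had a mean of 9.57. Of adipocyte genes 6 of 10 passed, or 60%, near the share of all named genes, led by Lpl (356, 243 and 454). Adipoq (4.05) and Lep (3.14) did not. Fabp4 read 354, 430 and 100, with replicate 4 far below the others. In the nerve list S100b, which cartilage also expresses, read 491, 765 and 584, and Nefl (23.9) and Tubb3 (10.3) lay under 50.

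Of 25 genes of perichondrial and tendon fibroblasts 24 reached 50, or 96%, against 58.6% of all named genes, with Pi16 (7.39) the exception. Chondrocytes in monolayer express several of them, and most of the list stands in other lists too, among them Col1a1, Col1a2 and Col3a1 with the collagens and Lum, Dcn and Aspn with the proteoglycans. Col12a1 read 1017, 814 and 1226, and the tenomodulin gene Tnmd, known from tendon and named after its values were seen, read 583, 158 and 640. Postn, periostin, of the perichondrium, read 655, 257 and 722. For both Tnmd and Postn replicate 2 lay below the others by more than they differed from each other. Of 30 skeletal muscle genes 16 reached 50, or 53.3%, against 58.6% of all named genes. On every array 9 of the 30 reached 50, and 8 had a mean of at least 100. The embryonic actin gene Actc1 read 509, 208 and 813, Acta1 318, 80.3 and 355, and Myog, the factor of muscle differentiation, 114, 52.7 and 150. Myf5 (2.51), Pax7 (4.62) and Neb (6.35) were near the floor. Summed over all 30 genes the muscle list gave 2444, 1284 and 3583 intensity units. Of 10 smooth muscle genes 7 passed, or 70%, against 58.6% of all named genes, and 4 were at 50 or more on every array. Acta2 (3864, 2862 and 4005) and Tagln (2758, 1890 and 2755), which cultured fibroblasts also express, led them, and Myh11 (8.53) was near the floor.

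These 3 vehicle cultures were not alike in such genes. The files give 2 hybridization days, with replicate 2 on the first and replicates 1 and 4 on the second, so the culture and the day cannot be told apart for replicate 2. Of the 10664 genes of at least 50, 215, or 2.02%, differed 2-fold or more between replicate 2 and the mean log2 value of the others, 90 of them higher and 125 lower in replicate 2. Replicates 1 and 4, hybridized on 1 day, differed 2-fold in 164 genes, replicates 1 and 2 in 180 and replicates 2 and 4 in 365, so replicates 1 and 2 stood about as close as the pair of the same day. Pearson correlations of log2 intensity over these genes were 0.973, 0.971 and 0.959, and genes are not independent replicates.

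Replicate 2 differed from the others list by list. Of all 10664 genes of at least 50, 3908 were highest and 3646 lowest on replicate 2, and 3657 were highest on replicate 4. Of 16 genes of the proliferating list 13 were highest on replicate 2 and 0 lowest. The median difference of these 16 genes from the mean of replicates 1 and 4 was 0.44 on the log2 scale. It was 0.01 for all genes of at least 50 and 0.03 for the 1225 of at least 1000. The 10 cartilage collagens had a median of 0.40. The 24 fibroblast genes had a median of -0.27, and 14 of them were lowest on replicate 2. For the 9 fibroblast genes of at least 1000 the median was -0.07. The 16 skeletal muscle genes had a median of -1.40, with 15 lowest on replicate 2 and 13 highest on replicate 4. Ribosomal protein genes, with a median of 0.12, and cell cycle genes, with -0.17, lay between. The signs for these 3 lists of proliferating, fibroblast and muscle genes were the same when replicate 1 or replicate 4 was left out. Summed over the list, the fibroblast genes gave 32750, 30267 and 33561 intensity units. The part of the hybridization day, or of muscle and fibroblast RNA, in the differences of the cartilage genes was not tested. The plot of differences between arrays sets these lists beside the difference between replicates 4 and 1, which had a median of 0.10 in the proliferating list and 0.54 in the muscle list.

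**Figure D5:**
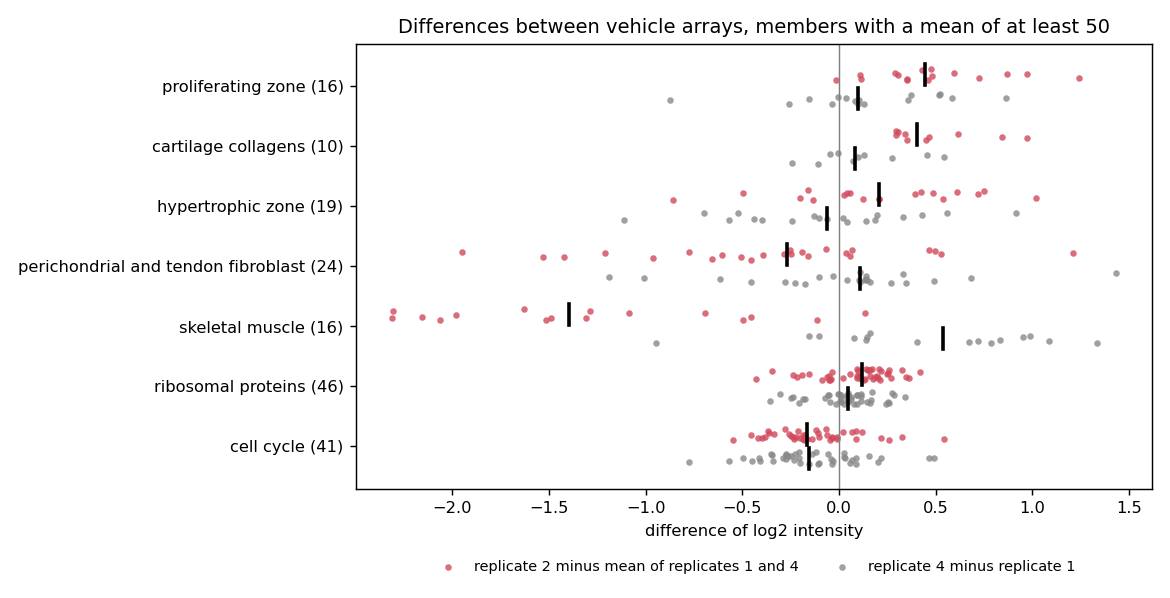
Differences of log2 intensity for members of 7 lists with a mean of at least 50 (number in brackets), replicate 2 minus the mean of replicates 1 and 4 in red and replicate 4 minus replicate 1 in grey, with black bars for the medians. Proliferating zone genes and cartilage collagens lie mostly to the right of 0 in red and skeletal muscle genes to the left, and the grey points of muscle genes lie mostly to the right.

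Single genes varied in several ways. Among the 2798 genes with a mean of at least 500, whose median CV was 9.41%, the largest spread of log2 values was that of Sfrp2, a secreted Wnt modulator, at 399, 171 and 1322. Ptn, pleiotrophin, a heparin-binding growth factor of fetal cartilage and perichondrium, followed at 1276, 309 and 1583. Serpinf1, an anti-angiogenic serpin, read 1040, 532 and 2063, and Eln, elastin, 529, 266 and 895, so these 4 genes were all lowest on replicate 2 and highest on replicate 4. Cytl1, a secreted protein of chondrocytes, ran the other way with 821, 1411 and 405, as did Matn3. Bnip3, a mitophagy gene that responds to low oxygen, was set apart by replicate 4 instead, at 312, 403 and 1227. Med18 and Fbln7 were high on replicate 2 alone (378, 1262 and 311, and 390, 1107 and 468). At the other end, Ssbp3 (584, 586 and 587), Clptm1 (1070, 1075 and 1072) and Gpkow (517, 518 and 522) had a CV under 1%.

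For genes with several probe sets the choice of the brightest mattered. Of 6831 such genes at 50 or more, the brightest probe set was a median of 2.19 times the second, and for 2257 only 1 probe set reached 50. Sox9 had probe sets with means of 985, 798 and 32.2, Col9a1 had 5182 and 3084, and Ibsp had 1290 and 398. Each of Col2a1, Acan, Matn1 and Col10a1 was read by a single named probe set. Among listed genes the widest gaps were those of Rps4x (mean of 5389, second probe set 2.64), Il1r1 (450 and 0.327) and Anxa1 (3534 and 2.63).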

How the data were processed

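Total RNA of 12 cultures had been hybridized to Affymetrix MOE 430 2.0 arrays, and the authors deposited linear intensity values made with GC-RMA in GeneSpring GX (no version was given). GC-RMA subtracts background by probe sequence and normalizes between arrays. Saturation at the top of the scale was not examined, and values near the floor are uncertain. The 3 vehicle arrays at 24 hrs were used, as deposited. Hybridization days came from the array description files, whose other fields were not used. The platform annotation names a single gene for 34958 probe sets. It gives several genes for 932, which were not named, and no symbol for 9211. Of the 18194 genes, 18033 matched RefSeq by gene identifier. Each gene took its brightest probe set by mean. No test between conditions was made, and every comparison between arrays is a description.

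The 50 gene lists, the members and the alternatives were chosen with earlier results of these data known, and 2 further lists (imprinted genes and chaperones) after the values were seen. Of 21 chaperone genes 21 had a mean of at least 50, against 58.6% of all named genes. The text names genes from these sets, not all of them: the 40 brightest genes, the markers, up to 10 highest members and 8 members under 50 of each list, the 10 most and least variable genes and the 10 with the largest difference between days among genes of at least 500, the 10 listed genes with the widest gap between probe sets, and the 10 brightest genes in no list. Genes named beyond this were chosen after their values were seen. Calculations used Python 3.11.15, pandas, numpy and scipy, and the ranking was tested on simulated data. RefSeq start sequences are on GRCm38.p6. Alternatives were the limit (25, 100, or 50 on each array), the mean over probe sets, leaving out _x_at and _s_at probe sets, means of log2 values, a further quantile normalization, 50 or 200 brightest genes, and leaving out each array.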

Additional observations from a re-analysis of the deposited data

How the results depend on the processing

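No paired analysis was possible because one group was described and no groups were compared. The count of genes of at least 50 stayed between 8471 (limit of 100) and 13084 (limit of 25), within 1.5 times 10664. Members of the 3 cartilage lists above the limit numbered 66 to 70 of 75 under every alternative run, whereas those of other cell types fell from 90 to 57 with a limit of 100. The 100 brightest genes kept 71 members with the mean over all probe sets, 81 without _x_at and _s_at probe sets, 96 to 99 without one array and 100 with log2 means or a further quantile normalization. Ribosomal genes made up 34% of the 100, 52% of the 50 and 17% of the 200 brightest, matrix genes 11%, 12% and 9.5%, and imprinted genes 6%, 8% and 3.5%, with 2 imprinted genes among the 100 by the mean over probe sets. That mean moved Col9a1 to 4133, Sox9 to 605 and Ibsp to 844 and left the single-probe-set markers as they were. The count of genes with a 2-fold difference of replicate 2, 215, became 98 when both other arrays had to differ by 2-fold, 365 for replicate 4 alone, and 179 to 368 without one array; the pairs of arrays were an alternative chosen after seeing the data, as were those of the list medians. The median difference of replicate 2 for the proliferating list was 0.28 to 0.58 without one array. For skeletal muscle genes it was -1.90 to -1.12 without one array and -1.57 for members of at least 100. For fibroblast genes it moved by less than 0.1 under these alternatives. For the 9 fibroblast genes of at least 1000 it was -0.07, with 4 higher and 5 lower on replicate 2. Of 450 values for single lists, 426 stayed within 1.5 times the reported count. Signal over background limits genes near 50: 705 of the 10664 genes reached the mean but not the limit on every array.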
